A study of Xenopus tropicalis with 12 samples.

Results

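Thyroid hormone (T3) acts through T3 receptors (TRs), nuclear receptors that sit on DNA as heterodimers with 9-cis retinoic acid receptors (RXRs) at T3 response elements. In the classical model the receptor occupies its elements with or without hormone, recruits corepressors such as N-CoR and SMRT when T3 is absent, and exchanges them for coactivators when T3 arrives. Frogs carry a TRα and a TRβ gene, and the TRβ gene is itself induced by T3, so that hormone can also raise the amount of receptor. Described here are 447 genomic regions of Xenopus hind limb in which TR was called as bound with T3 and not without it, in animals with and without TRα.

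Chromatin came from the hind limb of Xenopus tropicalis tadpoles at stage 54, the onset of metamorphosis, and was precipitated with an antibody against TR. The 4 conditions were TRα (-/-) tadpoles with T3, TRα (-/-) tadpoles without T3, wild-type tadpoles with T3, and wild-type tadpoles without T3. Treated tadpoles were kept at 10 nM T3, and limbs were taken after 18 h. By the labels, tadpoles of both genotypes shared parents. The paper states that wild-type animals were bought and that TRα (-/-) animals came from crosses of (+/-) frogs. TRα is lacking in every cell of the knockout rather than in the limb alone, and the TRβ gene is intact in all 4 conditions. Each condition is 1 chromatin sample pooled from the limbs of several tadpoles and sequenced as 3 technical replicate libraries, so every p-value below measures the spread between libraries, which is technical, and not that between tadpoles. The limb holds many cell types, so binding in fewer cells and weaker binding per cell cannot be told apart. The authors called peaks in each of the 12 libraries separately with MACS2 and without a control library. Mean depth was 1874736 fragments per library in TRα (-/-) with T3, 1810661 in TRα (-/-) without T3, 1729495 in wild type with T3 and 4462391 in wild type without T3. The lists held 25461 to 38371 peaks in TRα (-/-) with T3 and 4645 to 20827 without T3, and 32984 to 42421 in wild type with T3 and 23668 to 29582 without T3. The targeted gene itself cannot be checked in peak lists, and the lists carry no genes or sequence, so the regions are given by their position in the Xenbase v9.1 genome.

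Overlap of 1 bp joined the peaks of the 12 lists into 189159 regions. Of these, 22074 were bound, meaning a peak in at least 2 of 3 libraries, in at least 1 condition. The 447 regions were chosen by these same peak calls: bound in TRα (-/-) with T3 and in wild type with T3, and bound in neither condition without T3. They made up 2.03% of the bound regions. The opposite pattern, bound in both genotypes without T3 and in neither with T3, was held by 390 regions or 1.77%. The rule fixes that the 447 have more peaks with T3 than without, so the counts of their peaks below are a description and no test was made on them.

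The number exceeded what peaks placed elsewhere on the chromosomes gave. When the peaks of each library were moved around each chromosome by a distance of their own (circular shift, 20 shifts), 9 to 27 regions met the rule (mean 15.6). When only the TRα (-/-) libraries were moved, all by the same distance, 13 to 52 regions did (mean 27.1). The regions lost with T3 in both genotypes likewise numbered 0 to 8 and 2 to 18 in these shifts, against 390 in the deposited lists. Both the gained and the lost set were thus larger than in any shift. A shift moves every peak of a library, also at sites bound in all conditions, so these counts describe how often peaks fall on the same position and not how often a response to T3 recurs.

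Few of the 447 regions showed a clean gain. A peak was present in all 6 T3 libraries in 23 regions (5.15%), in 5 in 151 regions and in only 4, the fewest the rule allows, in 273 regions (61.1%). No untreated library had a peak in 61 regions (13.6%), 1 had a peak in 220 and 2 had a peak in 166 (37.1%). In TRα (-/-) without T3, 222 regions had a peak in 1 library, and in wild type without T3, 330 did (73.8%). The most frequent pattern, in 96 regions, was 2 libraries in each T3 condition, none in TRα (-/-) without T3 and 1 in wild type without T3. Only 2 regions had a peak in all 6 T3 libraries and in no untreated library, and 0 of the 390 regions lost with T3 in both genotypes had the mirror pattern. In the plot of peaks by library, the T3 libraries each held 65.1 to 83.7% of the 447 regions and the untreated libraries 2.24 to 34.7%.

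**Figure D1:**
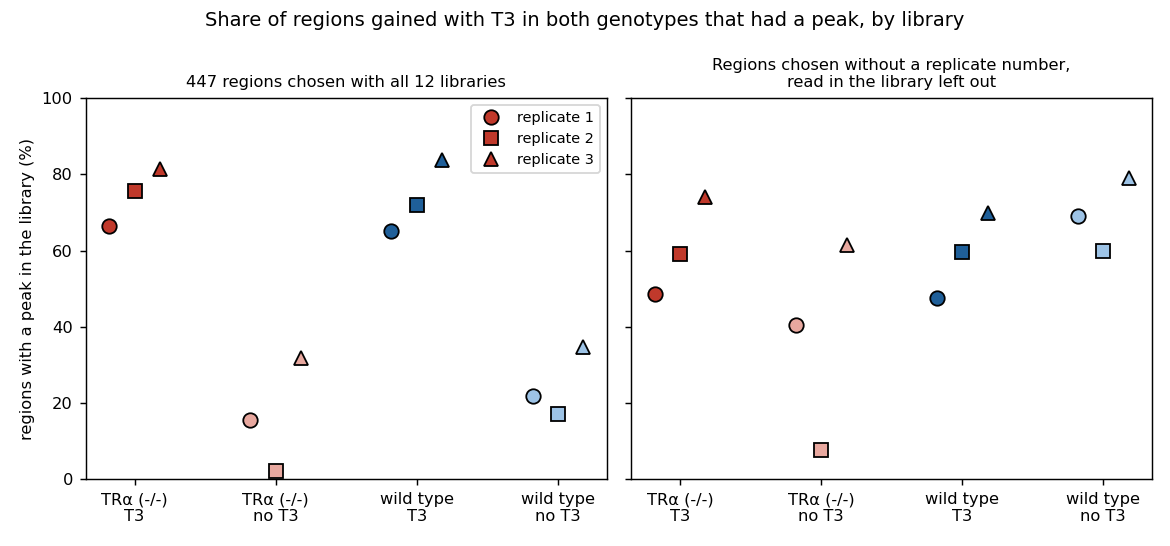
Share of regions with a peak (y axis, %) in each library, by condition (x axis), with 1 symbol per replicate number. Left, the 447 regions, where the rule itself places the T3 libraries (65.1 to 83.7%) above the untreated ones (2.24 to 34.7%). Right, regions chosen without the replicate number that is read, where wild type without T3 (60.0 to 79.0%) is no lower than wild type with T3 (47.7 to 69.9%).

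The first of the 2 regions with a peak in every T3 library and in no untreated one lies on chromosome 8 from 1119320 to 1119911 of the v9.1 genome. Its summit pileup, the number of fragments stacked at the highest point, was 7, 8 and 13 in TRα (-/-) with T3 (replicates 1, 2 and 3) and 5, 21 and 13 in wild type with T3. Fold enrichment over the local background was 5.24 to 5.75 in the TRα (-/-) libraries and 4.69 to 10.6 in the wild-type libraries. Within each list the peak ranked between the 72.8th and the 96.7th percentile by q value, where 100 is the strongest peak. It was thus above the middle of all 6 lists, and highest in replicate 2 of wild type with T3.

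The second lies on chromosome 7 from 110301128 to 110301753. It had 5, 7 and 6 fragments in TRα (-/-) with T3 and 3, 6 and 5 in wild type with T3, with fold enrichments of 4.92 to 6.12 and 3.51 to 5.59. Its percentiles ran from 52.7 in replicate 3 of TRα (-/-) to 89.5 in replicate 1. The peak itself was much alike there, with 6 and 5 fragments and fold enrichments of 4.92 and 5.08. The lists differed, with a median summit over all peaks of 7 fragments in replicate 3 and 2 in replicate 1. A further 8 regions, named because their values were seen, had a peak in 5 T3 libraries and in no untreated library. The strongest of them by mean percentile lies on chromosome 5 from 2033069 to 2034815, with 3, 10 and 8 fragments in TRα (-/-) with T3 and 5 and 8 in replicates 2 and 3 of wild type with T3. The weakest lies on chromosome 8 from 95075663 to 95076492, with 2, 6 and 7 fragments in TRα (-/-) and 3 and 3 in replicates 1 and 3 of wild type. The other 6 lie on chromosomes 1, 5, 6 and 8, and the mean percentiles of the 8 ranged from 39.3 to 73.1.

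Libraries without a peak do not enter the mean percentile, which was 84.2 over all 6 T3 libraries for the clean region on chromosome 8. By that measure the strongest of the 447 regions, at 96.8 over fewer T3 libraries, was not a clean gain. It lies on chromosome 7 from 108910230 to 108910824 and is also the highest ranked of the 91 regions just inside the rule (2 of 3 libraries in each T3 condition and 1 of 3 in each untreated condition). It had 17 and 30 fragments in replicates 2 and 3 of TRα (-/-) with T3 and 27 and 27 in replicates 2 and 3 of wild type with T3. The untreated libraries with a peak had 18 fragments in replicate 3 of TRα (-/-) and 29 in replicate 1 of wild type. Their percentiles were 91.5 and 97.0, against 94.7 and 95.8 in TRα (-/-) with T3 and 98.4 in both wild-type libraries with T3, and the other 6 libraries had no peak there at all. Replicate 1 of both T3 conditions and the deepest library, replicate 3 of wild type without T3, were among those 6. Summit pileups of the named regions are not scaled to depth. Here the untreated TRα (-/-) library with a peak held 3000220 fragments, against 1832197 and 2851627 in those with T3. The untreated wild-type library held 3080104, against 1825401 and 2307377 with T3. The next 2 regions just inside the rule, on chromosome 5 from 5859513 to 5860584 and on chromosome 3 from 110232310 to 110233546, had 9 and 16 and then 3 and 14 fragments in their TRα (-/-) libraries with T3, against 5 and 4 in TRα (-/-) without T3. In wild type they had 3 and 9 and then 6 and 8 fragments with T3, against 5 and 4 without T3.

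Regions just outside the rule ranked about as high. These 277 regions had the same calls with T3 but a peak in 2 of 3 libraries of 1 untreated condition and in 1 of 3 of the other. Their median mean percentile over T3 libraries with a peak was 62.9, against 61.1 for the 91 just inside. The highest ranked lies on chromosome 8 from 108542156 to 108543113. It had 7 and 8 fragments in TRα (-/-) with T3 and 8 and 8 in TRα (-/-) without T3, and 9 and 11 fragments in wild type with T3 and 14 in 1 library of wild type without T3. The others were on chromosome 6 from 133618202 to 133619005, with 12 and 17 fragments in TRα (-/-) with T3 against 9 in 1 library without T3, and 10 and 12 in wild type with T3 against 6 and 9 without T3, and on chromosome 10 from 36937467 to 36937736. In the last, the TRα (-/-) libraries had 7 and 32 fragments with T3 and 25 in 1 library without T3, and the wild-type libraries had 7 and 10 with T3 and 17 and 19 without T3.

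Because the rule used all 12 libraries, the gain was read again in libraries that had no part in the choice. Regions were chosen with 2 replicate numbers (a peak in both libraries of both T3 conditions and in at most 1 of the 2 libraries of each untreated condition) and read in the third, in the regions merged over all lists. In TRα (-/-) hind limb the T3 library had a peak more often each time: 48.7% against 40.4% without T3 for replicate 1 (495 regions), 59.2% against 7.76% for replicate 2 (245 regions) and 74.1% against 61.5% for replicate 3 (286 regions). In wild-type hind limb it was not so. There the T3 library had a peak in 47.7%, 59.6% and 69.9% of the regions, against 69.1%, 60.0% and 79.0% in the library without T3. The untreated wild-type library was thus higher for replicates 1 and 3 and level for replicate 2. Regions with a peak in both T3 libraries and in neither untreated library of the number left out were 12 of 495, 18 of 245 and 10 of 286, or 2.42%, 7.35% and 3.50%. The reverse, both untreated libraries and neither T3 library, was found in 35, 0 and 9 of the same regions. Regions chosen the same way for loss in both genotypes had the T3 pattern in 2 of 116, 42 of 727 and 0 of 164 (1.72%, 5.78% and 0.0%) and the reverse in 10, 7 and 6, so in replicate 2 the T3 pattern outnumbered its reverse in both sets.

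Library depth and list length also differed between the libraries read, and neither moved with the readings throughout. In TRα (-/-) the T3 library had the longer list for each number, but was the shallower library for replicates 1 and 3. In wild type the T3 library was shallower and had the longer list for each number. The untreated TRα (-/-) library of replicate 2, with 834029 fragments and 4645 peaks, had a peak in only 54.3% of the regions that the other replicates bound in all 4 conditions, whereas the T3 library of the same number and genotype had one in 95.6%. Relative to those regions, the recovery in replicate 2 was 0.619 with T3 against 0.143 without T3 in TRα (-/-) and 0.623 against 0.610 in wild type. In replicates 1 and 3 it was 0.548 against 0.449 and 0.745 against 0.621 in TRα (-/-), and 0.529 against 0.703 and 0.707 against 0.791 in wild type. The wild-type libraries without T3 were the deepest, with 3080104 to 6119057 fragments against 1055706 to 2307377 with T3. The part of depth and list length in these values was not tested.

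The second reading used genotype. A region gained with T3 in wild type was classed by the calls of wild-type libraries alone, and the TRα (-/-) libraries could then be read for it, and the other way round. The borders of the regions came from peaks of all 12 lists, so the libraries read also had a part in them. Of the 3436 regions gained in wild type (15.6% of bound regions), a peak was present in 17.0, 23.0 and 27.5% in the TRα (-/-) libraries with T3 and in 13.6, 2.47 and 20.8% in those without T3 (replicates 1, 2 and 3). The mean was 22.5 ± 5.24% in treated and 12.3 ± 9.23% in untreated libraries (SD, n = 3 each), a difference of 10.2 percentage points that did not exceed the spread between libraries (exact two-sided permutation test, p = 0.2, adjusted 0.267 over 4 tests). The ranges overlapped, and 3 libraries against 3 allow no p below 0.1. Without replicate 2 of untreated TRα (-/-), the shallowest library, the difference was 5.26 percentage points. Relative to regions bound in wild type under both treatments, the recovery was 0.302 ± 0.0304 in treated and 0.20 ± 0.0975 in untreated libraries (SD, n = 3 each; p = 0.2, adjusted 0.267, same exact test), a difference of 0.102 that came to 0.0472 without that library and to 0.00945 with lists of equal length (p = 0.7, same exact test).

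Read the other way, the direction was opposite. Of the 6481 regions gained with T3 in TRα (-/-) (29.4% of bound regions), 39.9, 49.1 and 56.6% had a peak in the wild-type libraries with T3 and 56.6, 57.8 and 64.7% in those without T3. The means were 48.5 ± 8.39% with T3 and 59.7 ± 4.39% without T3 (SD, n = 3 each), a difference of -11.2 percentage points (exact two-sided permutation test, p = 0.2, adjusted 0.267), or -6.83 without replicate 1 of wild type with T3. The relative recovery was 0.574 ± 0.0528 in treated and 0.641 ± 0.0300 in untreated libraries (SD, n = 3 each; p = 0.3, adjusted 0.3, same exact test). None of the 4 differences exceeded the spread between libraries, and the p-values do not show that treated and untreated libraries were alike.

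**Figure D2:**
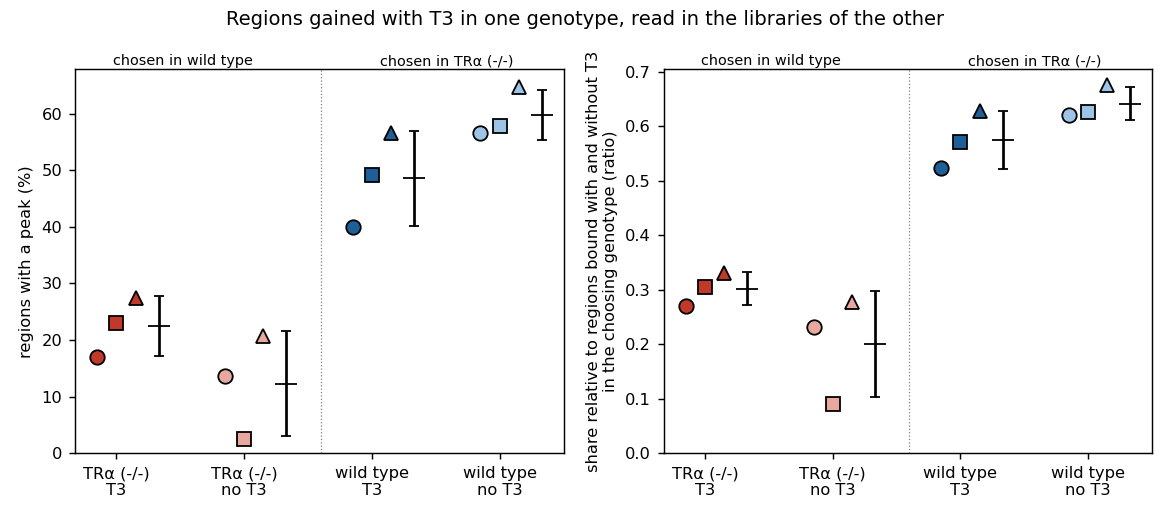
Regions gained with T3 in 1 genotype, read in the 6 libraries of the other genotype, as a share (left, %) and relative to regions bound under both treatments in the choosing genotype (right, ratio). Symbols are libraries by replicate number, and bars are the mean and SD of 3 libraries. T3 libraries average 22.5% against 12.3% without T3 in TRα (-/-), and 48.5% against 59.7% in wild type.

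The cross of the genotypes places the 447 regions. They were 6.90% of the regions gained with T3 in TRα (-/-) and 13.0% of those gained in wild type. Most regions gained in TRα (-/-) were already bound in wild type without T3: 2735 (42.2%) were bound in wild type under both treatments and 1245 (19.2%) were bound in wild type without T3 only. Regions gained in wild type were mostly unbound in TRα (-/-), 2744 of 3436 (79.9%), while 116 (3.38%) were bound there under both treatments and 129 (3.75%) without T3 only. The 29.4% and 15.6% of all bound regions are no baseline for these shares, because they count regions bound in 1 genotype only. Of regions bound in wild type under both treatments, 27.1% were gained in TRα (-/-), and of those bound without T3 only, 21.6%. Both exceed the 13.0%. Of regions bound in TRα (-/-) under both treatments, 1.98% were gained in wild type, and of those bound without T3 only, 7.998%. The 6.90% lies between them.

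**Figure D3:**
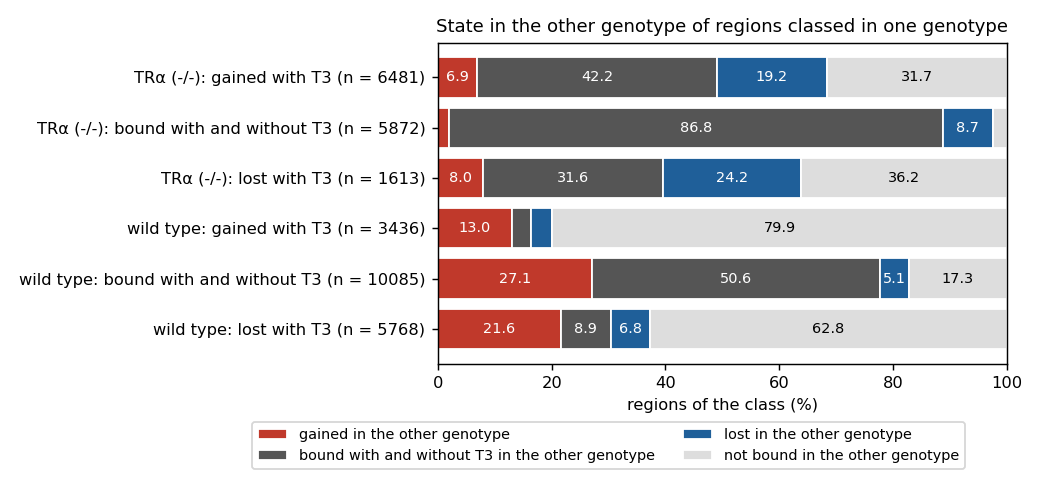
For regions gained, kept or lost with T3 in 1 genotype (rows, with the number of regions), the share (x axis, %) in each state in the other genotype. The 447 regions are the red part of the first and the fourth bars, 6.90% of those gained in TRα (-/-) and 13.0% of those gained in wild type.

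The peaks in the 447 regions were lower than those in regions bound in all 4 conditions, as values within the T3 libraries show. The median summit pileup was 3, 5 and 7 fragments in TRα (-/-) with T3 and 3, 5 and 6 in wild type with T3 (replicates 1, 2 and 3), with the highest single summit at 30 fragments. Over all peaks of the same lists the medians were 2, 5 and 7 and then 3, 4 and 5, so the 447 were not low for their lists. In the 5098 regions bound in all 4 conditions, the medians were 7, 12 and 17 fragments in TRα (-/-) with T3 and 7, 11 and 13 in wild type with T3. The median fold enrichment of the 447 was 3.60 to 4.92 over the T3 libraries, against 5.51 to 7.85 for regions bound in all 4 conditions, and the median percentile was 54.5 to 69.5 against 88.1 to 91.9. In the 6 T3 libraries 32.3 to 70.9% of their peaks had a q value below 0.001, against 74.5 to 95.6% for regions bound in all 4 conditions. In replicate 1 of TRα (-/-) and of wild type with T3, 22.6% and 21.0% of the peaks stood at 2 fragments, the lowest the list holds.

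Compared with regions gained in a single genotype, the 447 ranked higher in each library of the gaining condition. In TRα (-/-) with T3 the median percentile was 69.5, 56.1 and 54.5 for the 447 regions and 58.3, 49.98 and 44.4 for the 2054 regions gained in TRα (-/-) and not bound in wild type. In wild type with T3 it was 67.4, 64.2 and 64.7, against 57.2, 52.1 and 52.9 for the 2744 regions gained in wild type and not bound in TRα (-/-). These values come from the libraries that chose the regions and carry no test. Such ranks were not particular to the 447. Where regions lost with T3 in both genotypes had a peak in a T3 library (59 to 149 regions), it ranked about as high. The medians there were 69.5, 66.0 and 58.9 in TRα (-/-) and 72.5, 60.9 and 67.7 in wild type. Where the 447 regions had a peak in an untreated library, the median summits were 5, 4 and 7 in TRα (-/-) and 5, 7 and 9 fragments in wild type without T3.

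**Figure D4:**
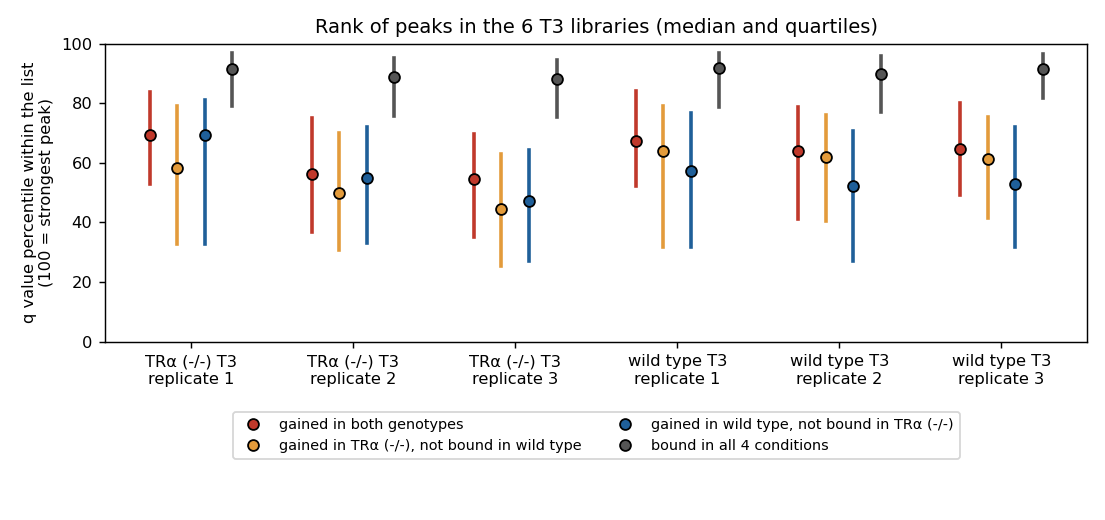
Median and quartiles of the q value percentile (y axis, 100 is the strongest peak of a list) in the 6 T3 libraries (x axis). The 447 regions gained in both genotypes have medians of 54.5 to 69.5, and regions bound in all 4 conditions 88.1 to 91.9. In the libraries of the genotype that did not gain them, single-genotype regions had a peak in at most 1 of 3 libraries.

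The lists differ in how small a summit they admit. Scaled to 1000000 fragments in a library, the lowest summit called was 1.40 to 2.13 in TRα (-/-) with T3 and 1.33 to 3.60 without T3, and 1.30 to 1.89 in wild type with T3 against 0.817 to 0.974 without T3. The median summit of the 447 regions was 2.45 to 3.19 on this scale in the T3 libraries, which is above the lowest summit of every untreated list except that of replicate 2 of TRα (-/-). Over the peaks called in the 447 regions, the median summit on this scale was 3.19, 2.73 and 2.45 in TRα (-/-) with T3 and 3.13, 4.80 and 2.33 without T3, where the ranges overlap. In wild type it was 2.60 to 2.84 with T3 and 1.47 to 1.67 without T3, where they do not. The same wild-type libraries differed this way in other classes, so the gap is not particular to the 447. Regions bound in all 4 conditions had 5.63 to 6.63 with T3 and 3.76 to 4.22 without T3. Regions lost with T3 in both genotypes had 2.74 to 3.79 and 1.63 to 1.95. These levels are not corrected for background, only called peaks have one, and the part of these limits in the calls was not tested.

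Summit positions were not used by the rule. The distance between the strongest summit of TRα (-/-) with T3 and that of wild type with T3 had a median of 142 bp (quartiles 49 to 310 bp), and lay within 100 bp in 178 of the 447 regions (39.8%). Regions gained in 1 genotype and not bound in the other came close to this, where both T3 conditions had a peak. The median was 134 bp with 42.3% within 100 bp for wild type (966 regions), and 140.5 bp with 39.5% for TRα (-/-) (790 regions). In regions bound in all 4 conditions it was 82 bp, with 54.4% within 100 bp, although those regions were wider (median 1033 against 808 bp). In regions lost with T3 in both genotypes, the untreated summits were 115 bp apart and 46.9% lay within 100 bp. As a share of region width, the summit distance was 18.4% in the 447 regions, 14.9% in the lost ones and 7.92% in those bound in all 4 conditions. In the regions gained in 1 genotype it was higher, at 21.4% for wild type and 21.2% for TRα (-/-). Peaks of the 447 regions were also lower than those of regions bound in all 4 conditions, and the part of peak height in these distances was not tested. The 61 regions with no untreated peak were narrower (median 708 bp) and had summits 168 bp apart, against 124 and 153 bp for regions with 1 or 2 untreated peaks. Only 10 of the 61 (16.4%) had a peak in at least 5 T3 libraries, against 89 of 220 (40.5%) and 75 of 166 (45.2%). A region spans all the peaks merged into it, so its width is tied to the number of libraries with a peak.

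The libraries that carried the calls were spread unevenly over replicate numbers. Of the 342 regions with a peak in exactly 2 TRα (-/-) libraries with T3, 150 lacked replicate 1, 109 replicate 2 and 83 replicate 3. Of the 355 such regions in wild type with T3, 156 lacked replicate 1, 126 replicate 2 and 73 replicate 3. Replicate 3 was the deepest library of each T3 condition and replicate 1 the shallowest. Among the 273 regions with exactly 2 libraries in both T3 conditions, the same replicate numbers carried the calls of both genotypes in 97. Each condition has only 3 such pairs of libraries, so many regions match without any link between genotypes, and none is read from the 97.

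By position, the 447 regions lay on all 10 chromosomes, with 30 on chromosome 10 to 66 on chromosome 2, and were 1.83 to 2.39% of the bound regions of each chromosome. Per megabase they were densest on chromosome 10 (0.751) and sparsest on chromosome 4 (0.270). As a share of bound regions they were 2.00% and 1.83% there, against 2.03% over all chromosomes, so the density is not particular to the 447. Within 5 Mb of a chromosome end, as far as the lists reach, lay 29.3% of them, against 31.3% of all bound regions and 39.7% of regions bound in all 4 conditions. The median distance from one to the nearest other, on either side, was 521 kb, and 6 (1.34%) had another within 10 kb. The nearest of the 447 was at a median of 655 kb from regions gained in TRα (-/-) and not bound in wild type, and 690 kb from those gained in wild type and not bound in TRα (-/-). It was 394 kb from regions lost in both genotypes and 389 kb from regions bound in all 4 conditions. A region bound in all 4 conditions lay within 10 kb of 71 of them (15.9%), against 11.1% for regions gained in TRα (-/-) and not bound in wild type and 11.6% for regions gained in wild type and not bound in TRα (-/-), 20.3% for regions lost with T3 in both genotypes, and 25.4% for regions bound in all 4 conditions, counting another of their kind.

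The number of regions in the set moved with single libraries and with the calling threshold, and so did the number of bound regions. Leaving out any 1 of the 6 T3 libraries, with 2 libraries still required, gave 163 to 254 regions, fewest without replicate 3 of wild type. These were 0.807 to 1.22% of the regions bound in the same setting, against 2.03% with all libraries. Leaving out any 1 of the 3 wild-type libraries without T3, which makes an untreated call harder to reach, gave 896 to 1099, and any 1 of the untreated TRα (-/-) libraries 461 to 549. With replicate 1, 2 or 3 left out in all 4 conditions, the number was 490, 240 or 276 (3.02, 1.47 or 1.92% of bound regions). Of these, 141, 105 or 62 regions matched one of the 447. Under a q value limit of 0.001 the set held 166 regions, and 59 of the 447 remained in the set. The 166 were 1.16% of the 14287 regions bound at that limit. At a limit of 0.01 the share was 1.65% (307 of 18653), and 227 of the 447 remained. With lists of equal length it was 1.61% (98 of 6072), and only 3 of the 447 remained. The order of gain and loss turned with the setting. Gained regions outnumbered lost ones as deposited (447 against 390) but not under a q value limit of 0.01 (307 against 401) or 0.001 (166 against 324), with fold enrichment of at least 4 (213 against 389), or when every list was cut to equal length (98 against 181).

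**Figure D5:**
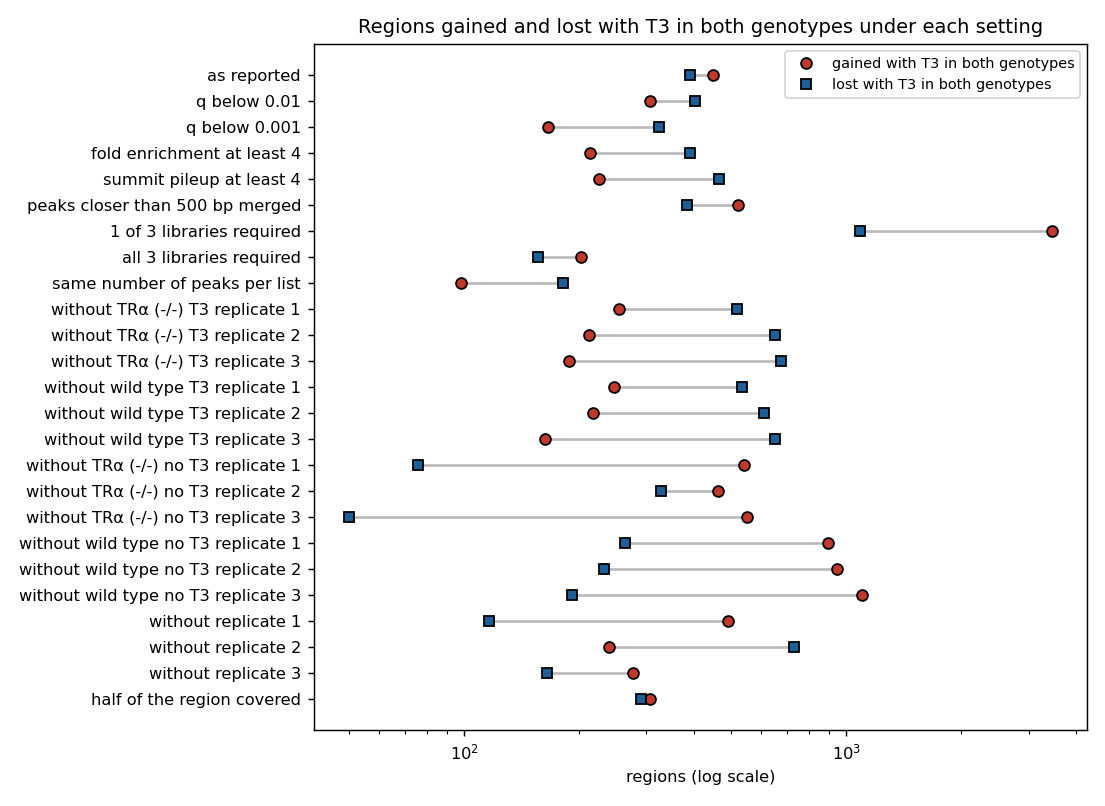
Number of regions (x axis, log scale) gained (circles) and lost (squares) with T3 in both genotypes under each setting (rows). Gain exceeds loss as deposited (447 against 390), and loss exceeds gain under a q value limit of 0.01 (307 against 401) and when any single T3 library is left out, a step that by construction removes gain calls. The converse holds when any single untreated library is left out, as for replicate 3 of TRα (-/-) (549 against 50).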

How the data were processed

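Alignment by the authors was to Xenbase v9.1 with Bowtie2 2.3.4.1. Duplicates were taken out with Samtools, and MACS2 2.1.1.20160309 called each library by itself, with no control, keeping q values under 0.05. For each peak the deposited lists hold a position, a summit pileup (a signal in fragments that is unscaled), fold enrichment (a ratio to local background), and −log10 transforms of the q-value and p-value. Depth is the number of fragments after filtering in the authors' file headers. Conditions and replicate numbers came from the sample labels.

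Peaks were merged, classed and counted with Python 3.11.15 (numpy 2.4.6, pandas 2.3.3, scipy 1.17.1, matplotlib 3.10.9), and the merging and classing were tested on simulated lists. Where a library had several peaks in a region, the one with the best q value was used. Groups of 3 libraries were compared by an exact two-sided permutation test of the difference of means, with Benjamini-Hochberg adjustment over 4 tests. Same-numbered libraries did not deviate together (correlations of -0.00619 to 0.0544 over regions), so replicate numbers were not used to pair libraries.

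The regions, comparisons and alternatives were chosen with earlier results of these data known. Regions named are those with a peak in all 6 T3 libraries and no untreated one, and the 3 best-ranked just inside and just outside the rule. The 8 regions with 5 T3 libraries and the best-ranked region overall were named after their values were seen. Regions were ranked by the mean percentile over the T3 libraries with a peak, so libraries without one did not lower a rank. Alternatives were stricter q values, fold enrichment or pileup, wider merging, other numbers of libraries, lists of equal length, coverage of 50% of a region, and libraries left out. Gene names, motifs and sequences were not analysed here, since no annotation or sequence of the v9.1 genome was used.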

Additional observations from a re-analysis of the deposited data

Results flagged for a closer look

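The T3 minus untreated difference for regions gained in the other genotype had opposite signs in the 2 genotypes. In TRα (-/-) libraries, the share of wild-type-gained regions with a peak was 10.2 percentage points higher with T3 than without. In wild-type libraries, the share of TRα (-/-)-gained regions with a peak differed by -11.2 percentage points. Neither difference exceeded the spread between libraries (exact two-sided permutation test, p = 0.2 and adjusted p = 0.267 for each). The contrast was flagged because it differed in sign between genotypes. The difference between genotypes was not tested, and the regions read are not the same in each genotype. Depth differed between the libraries compared, and its part was not tested.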

How the results depend on the processing

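The number of regions gained with T3 in both genotypes was 166 at a q value below 0.001, 213 with a fold enrichment of at least 4, 226 with a summit pileup of at least 4, 98 when every list was cut to its best 4645 peaks, 202 when a peak was needed in all 3 libraries, 3458 when 1 library was enough, and 61 with no peak allowed in any untreated library. As a share of the regions bound in each setting, these were 1.16, 1.38, 1.19, 1.61, 1.78, 1.83 and 0.276%, in the same order. The share was 2.03% as deposited. With libraries left out the number ranged from 163 to 1099, and the share from 0.807 to 5.50%. The number stayed within 1.5 times of 447 at a q value below 0.01 (307), with peaks closer than 500 bp merged (521) and with 50% of a region covered (306). A similar number did not mean the same regions. Of the 447, 227, 422 and 84 matched a region of these sets, in the same order. Only 23 did when a peak was needed in all 3 libraries, and 3 when every list was cut to its best 4645 peaks. The T3 minus untreated share of wild-type-gained regions in TRα (-/-) libraries kept its sign in all 24 alternatives (5.26 to 20.9 percentage points with libraries left out), as did its relative recovery (0.0472 to 0.190). Both were smaller with every list cut to equal length (4.88 percentage points, p = 0.4, and 0.00945, p = 0.7, exact permutation test) and when 1 library was enough (1.18 percentage points and 0.0194). The share of TRα (-/-)-gained regions in wild-type libraries also kept its sign (-15.3 to -6.83 with libraries left out, -10.1 with lists of equal length, -0.261 when 1 library was enough). Its relative recovery (-0.0944 to -0.0411) reversed, to 0.00963, when 1 library was enough (exact permutation test, p = 0.1). With the replicate number as a block, these differences of 10.2, -11.2, 0.102 and -0.0670 had p = 0.25 in an exact sign-flip test, the smallest that 3 pairs allow. The block leaves each difference as it was, so 1 of the 24 alternatives kept its sign by construction. Depth limits every absence, since a shallow library can miss a peak that a deep one calls.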
